A study of Homo sapiens with 2 samples.

Results

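The ERK feedback genes examined here were the Sprouty genes SPRY1, SPRY2 and SPRY4, the SPRED genes SPRED1 and SPRED2, the PEA3-type ETS factor genes ETV1, ETV4 and ETV5, and PHLDA1. Every probe set was taken that the annotation of the array pairs with exactly 1 gene carrying 1 of these 9 symbols. This gave 28 probe sets of the 9 genes, out of 41091 such probe sets of 19775 genes. RNA came from KYSE170-luc, an esophageal squamous carcinoma cell line whose suffix stands for luciferase, 12 h after transfection with a SOX17 expression plasmid (1 array) or with empty vector (1 array, EV). SOX17 is a transcription factor of the SOX family. Both groups went through the same transfection, and the SOX17 insert is the only difference that the labels give. With 1 array per group there is no replicate and no test, and each difference is one between 2 arrays.

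These genes sit downstream of receptor tyrosine kinases and the kinase cascade that ends in ERK. Active ERK induces them, and the Sprouty and SPRED proteins then act back on the same cascade: Sprouty proteins bind adaptors such as GRB2 and the ubiquitin ligase CBL, and SPRED proteins bring the RAS inactivator neurofibromin to the membrane. ETV1, ETV4 and ETV5 are transcription factors that carry part of the ERK response into transcription and are held down by the repressor CIC while ERK is inactive, and PHLDA1 encodes a pleckstrin homology-like domain protein whose transcript is used as a readout of ERK activity in carcinoma cells.

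Values are linear intensities, as deposited, and every log2 ratio was taken as SOX17 over EV, so that a negative one means a lower intensity on the SOX17 array. A probe set was called measured when it read at least 95 on both arrays, a floor set at the 60th percentile of the pooled intensities. By this rule 14 of the 28 probe sets and 7 of the 9 genes were measured. Of the other 14 probe sets, 12 were under the floor on both arrays and 2 on one of them. A gene was represented by its brightest probe set, and an intensity of 1 probe set was not set against that of another.

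The 2 arrays were on a common scale, with means of 499.03 (SOX17) and 499.26 (EV) once the outer 2% of values on each side were left out. SOX17 itself read 83.8 and 6.5 on its 2 probe sets on the SOX17 array, against 4.5 and 19.1 on the EV array, all under the floor, so the labels were not checked by it. Whether either probe set covers the plasmid's insert is not given in the sources used here. Of 10 squamous epithelial markers, 5 had a probe set of 1 gene, and all 5 were measured, with summed intensities of 71435.2 on the SOX17 array and 71509.3 on the EV array. Among them were KRT5 (273 on the SOX17 array and 247.5 on the EV array) and SFN (52641.3 on the SOX17 array and 50352.6 on the EV array). KRT14 (log2 ratio of 0.27) was also higher on the SOX17 array, while DSP (-0.21) and PKP1 (-0.47) were lower. None of 3 leukocyte markers (sums of 155.1 on the SOX17 array and 65.9 on the EV array) and none of 5 endothelial markers (138.5 on the SOX17 array and 192.6 on the EV array) was measured. Of 6 fibroblast markers (972.7 on the SOX17 array and 906.5 on the EV array) only COL1A1 was. Its brightest probe set read 845.1 on the SOX17 array and 780.2 on the EV array, most of those sums. COL1A1 had 2 measured probe sets, and its others fell under the floor on 1 or both arrays. The 24 poly-A control probe sets, for RNA added before labelling, were all higher on the SOX17 array, with a median log2 ratio of 0.57, and the 18 hybridisation control probe sets had a median of 0.11. Their part in the ratios below was not tested.

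No measured ERK feedback gene differed by 1.5-fold between the arrays. Of the 7 measured genes 0 were at least 1.5-fold lower on the SOX17 array, where 3.19% of all 10034 measured genes were, and 0 were at least 1.5-fold higher, where 3.78% were. SPRED1 and SPRY4 came closest, both lower on the SOX17 array, at 1.469-fold and 1.467-fold. At 2-fold the counts were also 0 lower and 0 higher (0.329% and 0.419% of all measured genes). At a threshold of 0.32 on the log2 scale, SPRED1 and SPRY4 were the 2 genes counted as lower and 0 were higher, against 13% lower and 15% higher among all measured genes. Of the 7 genes 5 had a log2 ratio below 0 (45.4% of all measured genes did) and 2 had one above 0 (54.6% did). The median log2 ratio of the 7 was -0.10, against 0.03 over all measured genes. Of the 14 measured probe sets 11 were below 0, against 48.9% of all measured probe sets. These 14 are not independent, since 6 of them belong to PHLDA1.

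**Figure D1:**
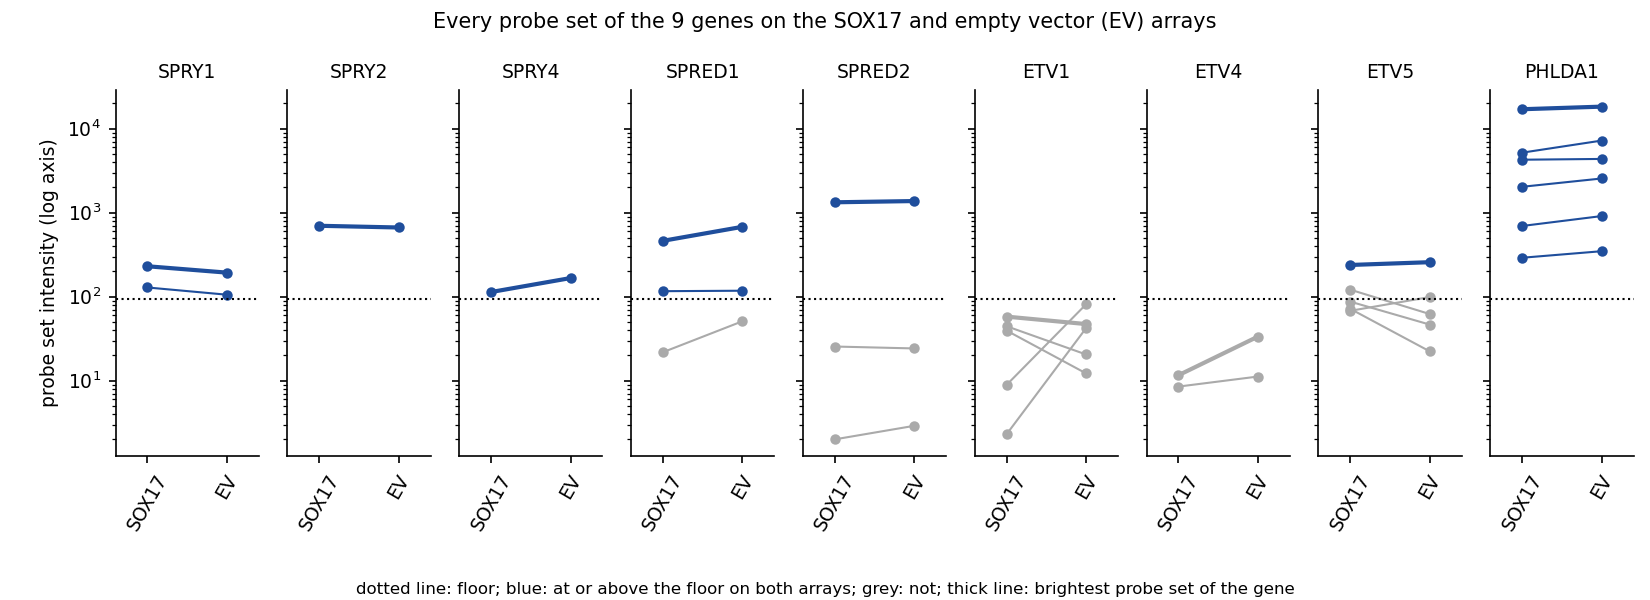
Intensity (log axis) of all 28 probe sets on the SOX17 array (left point) and the EV array (right point), 1 panel per gene, with the floor of 95 dotted. Blue lines are measured probe sets, grey lines are probe sets that were not measured, and the thick line is the brightest probe set of the gene. All ETV1 and ETV4 lines are grey, and the 6 PHLDA1 lines all lie higher on the EV array.

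The 3 Sprouty genes did not share a direction. SPRY1 read 230.4 on the SOX17 array and 193.5 on the EV array on its brighter probe set, and 128.8 on the SOX17 array and 105.6 on the EV array on the other. Both probe sets of SPRY1 were thus higher on the SOX17 array, with log2 ratios of 0.25 and 0.29. Among the 4574 genes with 2 or more measured probe sets, 23.1% had all of them above 0. SPRY2, the member of the family best known for binding CBL and GRB2 after growth factor stimulation, read 699 on the SOX17 array and 666.8 on the EV array on its single probe set, a log2 ratio of 0.07. SPRY4, which restrains ERK signalling from FGF and other receptors, read 113.6 on the SOX17 array and 166.7 on the EV array, a log2 ratio of -0.55. Its single probe set lay close to the floor on the SOX17 array, and its ID ends in _s_at, which marks probes shared by several transcripts. A ratio as low as that of SPRY4 was found in 3.95% of all measured genes and in 6.76% of those in the lowest tertile of level.

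Of the SPRED genes, SPRED1 had the lowest ratio of the 7 measured genes. Its brightest probe set read 462.5 on the SOX17 array and 679.5 on the EV array, a log2 ratio of -0.56, and 3.90% of all measured genes had one as low. A second probe set of SPRED1 read 116.3 on the SOX17 array and 117.8 on the EV array, a log2 ratio of -0.02, so the mean over both was -0.29. The third read 21.8 and 51 (SOX17 and EV), under the floor on both. The 2 measured probe sets of SPRED1 were both below 0, as were all measured probe sets of 25.5% of the genes with 2 or more, but their ratios lay 0.54 apart, nearly the whole size of the brighter one's ratio. SPRED2 read 1330.7 on the SOX17 array and 1376.9 on the EV array on its single measured probe set, a log2 ratio of -0.05. Its other probe sets read 25.5 and 2 on the SOX17 array, against 24.2 and 2.9 on the EV array. The SPRED2 ratio lay near the middle of all genes: 38.3% had one as low.

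The disagreement between probe sets of 1 gene gives a scale for these ratios. Over the 4574 genes, the difference between the log2 ratios of a gene's 2 brightest measured probe sets gave an SD of 1 ratio of 0.27. By tertile of the genes' level, that SD came to 0.35 for dim genes, 0.26 for the middle and 0.17 for bright ones. SPRED1, in the middle tertile, lay 2.17 of these SDs from 0, and SPRY4, in the lowest tertile, lay 1.56. By their brightest probe sets SPRY1, PHLDA1, ETV5, SPRY2 and SPRED2 lay within 1 SD, between 0.19 and 0.71. The other 5 probe sets of PHLDA1 lay between 0.18 and 2.74 SDs from 0, each by the SD of its own tertile, so that 1 of them lay further out than SPRED1. The second measured probe set of SPRED1 lay at 0.05 SDs. This SD holds error within the arrays together with any difference between the transcripts that 2 probe sets read. Error shared by all probe sets of a gene is not in it. Pairs were put in a tertile by the mean level of both probe sets, members by that of 1 probe set. How far separate cultures would differ cannot be read from 1 array per group.

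**Figure D2:**
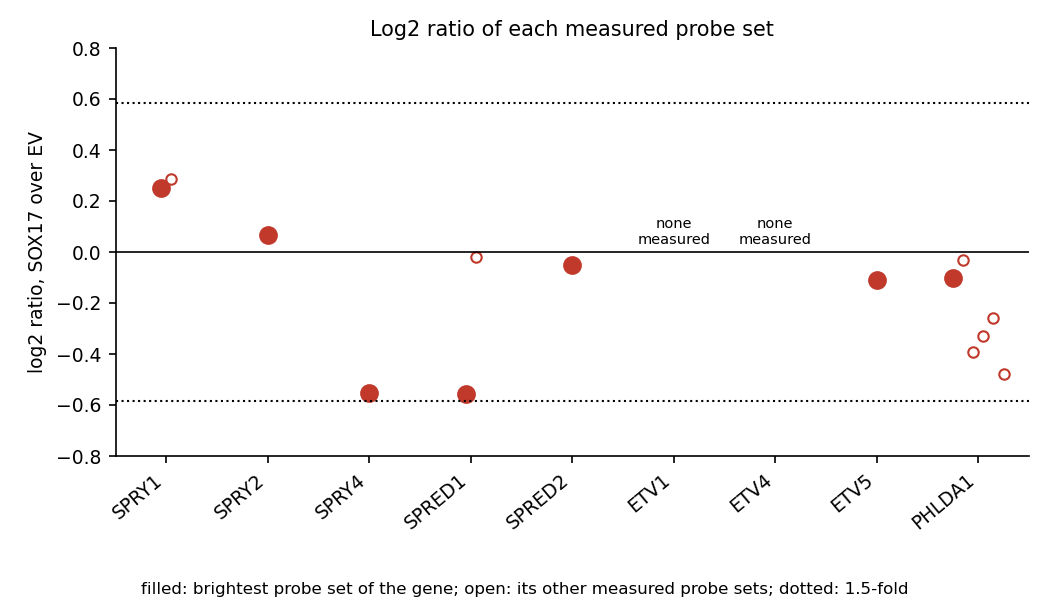
Log2 ratio of the SOX17 over the EV array (vertical axis) for each of the 14 measured probe sets, by gene, with 1.5-fold dotted. Filled points are the brightest probe set of a gene and open points its others. SPRY4 and SPRED1 lie just inside the lower dotted line at -0.55 and -0.56, and the second SPRED1 probe set lies at -0.02.

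The promoters of the 2 genes with the lowest ratios are shown because SPRY4 and SPRED1 are the members that came nearest to the threshold. Each window runs from 250 bases before to 50 bases after an annotated start (RefSeq, GRCh38.p14), 5′ to 3′. Both strands of every window were searched for a SOX core (ACAATG), an AP-1 site (TGANTCA), an ETS core (CCGGAAGT), a cyclic AMP response element (TGACGTCA), a TATA box (TATAAA) and the octamers bound by CIC (TGAATGAA, TGAATGGA, TCAATGAA or TCAATGGA). None of these letters occurs in either window, so both are in lower case throughout.
SPRY4 promoter, chr5:142324198-142324497, minus strand: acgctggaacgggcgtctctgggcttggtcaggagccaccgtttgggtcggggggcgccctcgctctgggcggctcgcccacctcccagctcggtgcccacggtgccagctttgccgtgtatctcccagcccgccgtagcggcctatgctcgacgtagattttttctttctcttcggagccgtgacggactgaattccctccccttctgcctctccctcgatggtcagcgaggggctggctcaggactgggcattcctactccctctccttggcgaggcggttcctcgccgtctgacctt
SPRED1 promoter, chr15:38252586-38252885, plus strand: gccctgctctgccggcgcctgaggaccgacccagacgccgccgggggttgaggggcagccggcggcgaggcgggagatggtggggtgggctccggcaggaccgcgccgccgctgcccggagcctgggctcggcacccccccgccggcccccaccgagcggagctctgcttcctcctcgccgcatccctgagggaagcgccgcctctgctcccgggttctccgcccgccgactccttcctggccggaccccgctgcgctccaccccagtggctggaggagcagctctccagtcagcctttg

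The table held 16 windows for 7 of the 9 genes, with several starts for SPRY1, SPRY2, SPRED2 and ETV1. ETV4 and ETV5 had none. A SOX core was found in 3 of the 16 windows and in 10.8% of all 35116 windows, and 2 of the 3 are overlapping ETV1 windows that share 1 site. SPRED2 held a SOX core, 2 AP-1 sites and a TATA box in the window of its second start, shown here with the SOX core and the AP-1 sites in capitals. AP-1 sites occurred in 7.71% of all windows. TATA boxes occurred in 11.5%, ETS cores in 4.14% and cyclic AMP response elements in 1.85% of all windows, and the last 2 in none of the 16. A match is a run of letters and no measured binding site.
SPRED2 promoter, chr2:65366729-65367028, minus strand: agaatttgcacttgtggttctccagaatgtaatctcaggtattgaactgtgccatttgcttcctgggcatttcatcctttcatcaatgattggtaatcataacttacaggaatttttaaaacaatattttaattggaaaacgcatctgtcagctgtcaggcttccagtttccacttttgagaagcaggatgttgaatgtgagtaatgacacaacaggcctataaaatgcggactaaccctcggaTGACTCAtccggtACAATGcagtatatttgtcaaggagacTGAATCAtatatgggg

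Most probe sets of the 3 PEA3 factors read low on these arrays, and only ETV5 was measured. ETV5 was measured on 1 of its 5 probe sets, which read 238.6 on the SOX17 array and 257.6 on the EV array, a log2 ratio of -0.11. The other 4 ETV5 probe sets read 121.2, 87.3, 71.7 and 67.9 on the SOX17 array, against 62.1, 46.5, 22.3 and 99.1 on the EV array. Of these 4 near or under the floor, 3 read higher and 1 read lower on the SOX17 array, so they had no common direction. ETV1 had 5 probe sets, which read 57.9, 44.5, 39.5, 8.9 and 2.3 on the SOX17 array, against 47.2, 20.5, 12.2, 81.3 and 42.3 on the EV array. All were under the floor on both arrays, with 3 higher and 2 lower on the SOX17 array. ETV4 had 2 probe sets, which read 11.6 and 8.5 on the SOX17 array, against 33.5 and 11.2 on the EV array. No fold is given for ETV1 or ETV4, and intensities this low do not show that either transcript was absent.

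An ETV1 window carries both a CIC octamer and a SOX core, and it is shown as the single window of the 16 with a CIC match. The octamer begins at position -125 and the SOX core at position -24, counted from the annotated start, with no position 0. Capitals mark both. CIC octamers occurred in 3.77% of all windows.
ETV1 promoter, chr7:13991376-13991675, minus strand: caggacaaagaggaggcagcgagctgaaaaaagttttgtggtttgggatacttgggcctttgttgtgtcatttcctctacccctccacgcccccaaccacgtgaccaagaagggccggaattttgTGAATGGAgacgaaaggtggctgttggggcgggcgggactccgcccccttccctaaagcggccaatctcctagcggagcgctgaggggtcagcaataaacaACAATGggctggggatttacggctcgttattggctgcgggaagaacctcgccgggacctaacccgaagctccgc

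PHLDA1 was measured on all 6 of its probe sets. The brightest read 17072.9 on the SOX17 array and 18333.7 on the EV array, a log2 ratio of -0.10. The next read 5189 on the SOX17 array and 7228.4 on the EV array, a log2 ratio of -0.48 and the lowest of the 6. The third read 4277 on the SOX17 array and 4370 on the EV array, a log2 ratio of -0.03 and the highest of the 6. All 6 were thus lower on the SOX17 array, but by amounts that ranged from almost none to 1.39-fold. The remaining 3 read 2035.7, 695.1 and 290.9 on the SOX17 array, against 2556.7, 912.2 and 348.1 on the EV array, with log2 ratios of -0.33, -0.39 and -0.26. The mean over the 6 was -0.27. Of the 66 genes with 6 or more measured probe sets, 13 (19.7%) had all of them below 0, PHLDA1 among them.

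**Figure D3:**
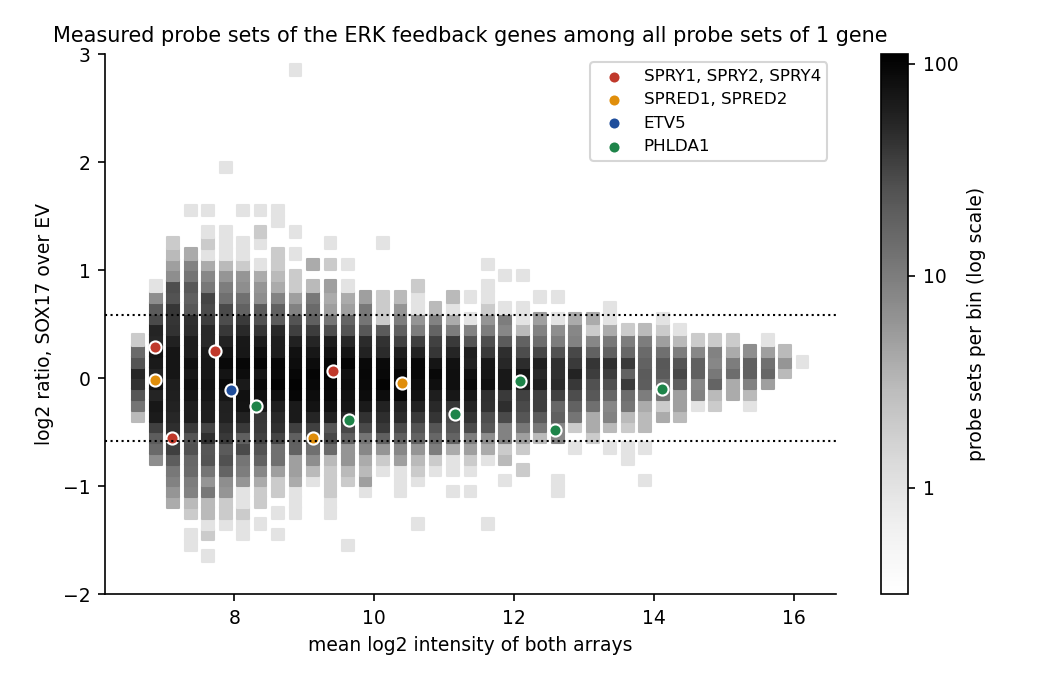
Log2 ratio of the SOX17 over the EV array (vertical axis) against the mean log2 intensity of both arrays (horizontal axis), with the ERK feedback probe sets in colour over all 17364 measured probe sets of 1 gene, in grey by number per bin. The grey cloud narrows as the level rises, and no coloured point lies outside the dotted lines at 1.5-fold.

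Of 4 relatives of these genes outside the 9, 2 were measured. SPRY3 read 22.2 on the SOX17 array and 8.5 on the EV array, and SPRED3 read 21.5 on the SOX17 array and 92.6 on the EV array, all under the floor. PHLDA2, an imprinted gene that encodes a protein related to PHLDA1, had a log2 ratio of -0.37, and PHLDA3, a repressor of AKT, one of 0.13. The other measured probe set of PHLDA3 lay at -0.09.

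Other transcripts that follow ERK activity were also mostly lower on the SOX17 array. Of 15 such genes 14 were measured, 11 of them below 0 (45.4% of all measured genes were), with a median log2 ratio of -0.26. Those furthest from 0 were the zinc finger factor EGR1 (-0.47), the phosphatase DUSP5 (-0.46), the AP-1 subunit FOS (-0.45) and the phosphatase DUSP4 (-0.36). By their brightest probe sets 0 of the 14 were at least 1.5-fold lower, against 3.19% of all measured genes. Other measured probe sets went further: those of the phosphatase gene DUSP6, named after its values were seen, lay at -0.35, -0.69 and -0.67, the last 2 past 1.5-fold, and the 3 of DUSP4 ran from -0.60 to -0.36, the lowest past it. The lowest of the 3 measured EGR1 probe sets lay at -0.47 and the highest at 0.45. PLAUR and MCL1, below 0 on their brightest probe sets, also had measured ones above 0, up to 0.23 and 0.13. Without _x_at and _s_at probe sets 10 of the 15 genes were measured, with a median of -0.05. This list was chosen with earlier results of these data known and is no independent support.

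Upstream of the feedback genes, ratios lay on both sides of 0. Beside the counts below 0 of these and the following lists, 45.4% of all measured genes were below 0. Beside the lists' counts past 1.5-fold, 3.19% of all measured genes passed it on the low side and 3.78% on the high side. Of 13 growth factor receptors 9 were measured, 4 below 0 and 5 above, with a median of 0.01. FGFR4, a receptor for FGF ligands, was the only one of these past 1.5-fold, at 125.2 on the SOX17 array and 229.2 on the EV array (-0.87), followed by IGF1R (-0.54), FGFR3 (0.48) and MET (-0.25). FGFR4 rests on 1 measured probe set, close to the floor on the SOX17 array, and the 3 of IGF1R ranged from -0.54 to -0.03. All 4 measured ligands of 13 with a probe set were below 0, namely HBEGF (-0.37), FGF2 (-0.22), TGFA (-0.04) and FGF10 (-0.01), with a median of -0.13. The other measured probe set of TGFA lay at 0.57. Of 12 measured adaptors and partners of Sprouty and SPRED proteins 10 were below 0 (median -0.14), with the ubiquitin ligase CBLB at 0.31, GRB2 at -0.25, GAB1 at -0.21 and SOS1 at -0.20. The second measured probe sets of CBLB (-0.27) and GRB2 (0.06) had the opposite sign, and the 3 measured ones of SOS1 ranged from -0.67 to 0.003. Those of CBL, 3 in number, ranged from -0.60 to -0.12, and the 4 of PTPN11 from -0.59 to -0.19. The lowest of SOS1, CBL and PTPN11 was in each case past 1.5-fold. NF1 encodes the neurofibromin that SPRED proteins recruit. Its single probe set of 1 gene read 18.6 on the SOX17 array and 42.2 on the EV array, under the floor on both. Intensities this low do not show that its transcript was absent. In the cascade itself 7 of 12 genes had a probe set of 1 gene, and the other 5 were not analysed here. The kinase MAP2K2 was past 1.5-fold higher, at 2652.4 on the SOX17 array and 1745.2 on the EV array (0.60), but its other measured probe set lay at 0.10. SHOC2 lay at -0.39, MAPK3, which encodes ERK1, at -0.29 and HRAS at 0.14, and the median of the 7 was -0.03.

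**Figure D4:**
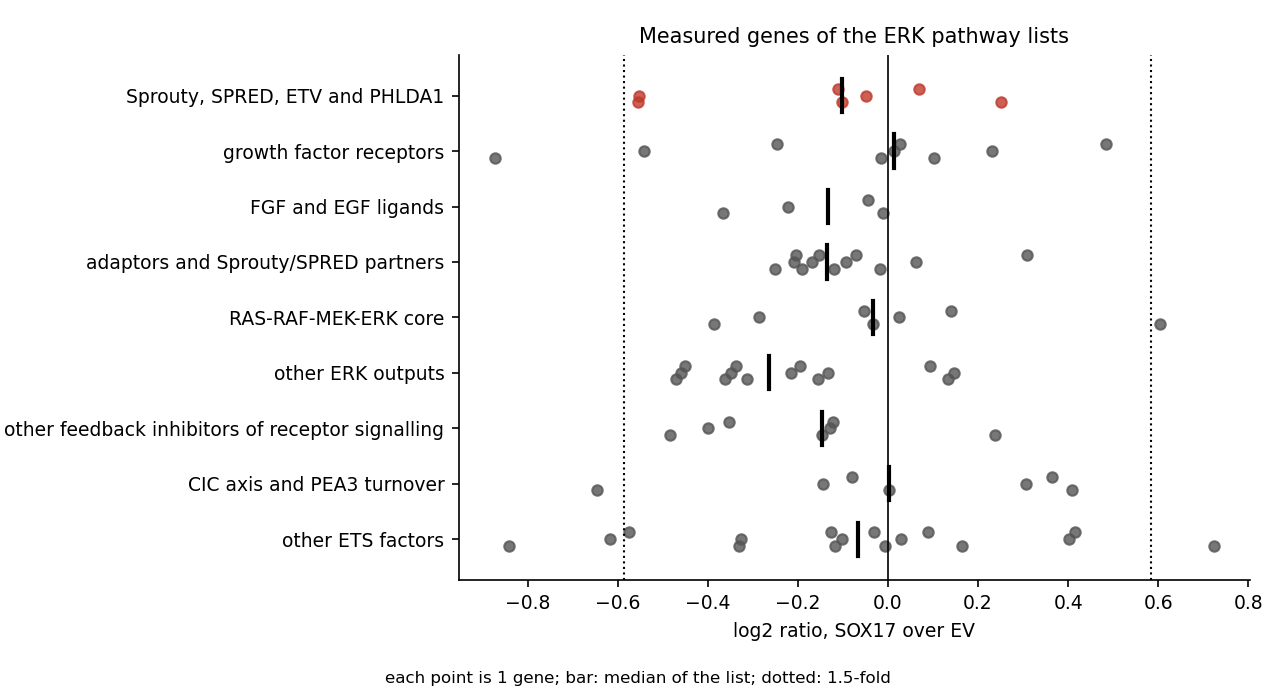
Log2 ratio of the SOX17 over the EV array (horizontal axis) for each measured gene of the ERK feedback group (top, red) and of 8 pathway lists (grey), with list medians as bars and 1.5-fold dotted. The ERK feedback genes run from -0.56 to 0.25 around a median of -0.10, and the other ERK outputs have a median of -0.26.

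The factors that act on the ETV genes and proteins did not share a direction either. CIC read 188.9 on the SOX17 array and 142.4 on the EV array (0.41). Its partner gene ATXN1 read 346.9 on the SOX17 array and 543.1 on the EV array (-0.65, and -0.82 on its other measured probe set). By brightest probe sets ATXN1 was the 1 of 7 measured genes past 1.5-fold. Of all measured genes, 3.19% passed it on the low side, as ATXN1 did, and 3.78% on the high side. ATXN1L lay at 0.00. COP1, which encodes the ubiquitin ligase that turns over ETV proteins, lay at 0.31, DDB1 at 0.36, CUL4A at -0.08 and CUL4B at -0.14. The 4 measured probe sets of CUL4B ranged from -0.60 to -0.14, the lowest past 1.5-fold. Beside these, the list of other feedback inhibitors had 6 of 7 measured genes below 0 and a median of -0.15, with the RAS GTPase activators RASA2 (-0.48) and RASAL2 (-0.40), the EGFR inhibitor ERRFI1 (-0.35) and LRIG3 (0.24) furthest from 0. The second measured probe set of RASA2 lay at -0.01, and the 5 measured ones of RASAL2 ranged from -0.72 to 0.24. SPRYD4 on this list shares a domain name with the Sprouty genes and is not of their family.

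Among 16 measured ETS factors outside the PEA3 group, 10 were below 0 and the median was -0.07. ELK3 read 1773.4 on the SOX17 array and 3176.5 on the EV array (-0.84), ETS1 read 1538 on the SOX17 array and 2359.7 on the EV array (-0.62), and ELF3 read 722.4 on the SOX17 array and 437.7 on the EV array (0.72). These 3 of the 16 were past 1.5-fold, and ELF2 lay at -0.58. Among all measured genes 3.19% passed 1.5-fold on the low side and 3.78% on the high side. The 3 measured probe sets of ELF3 ranged from -0.71 to 0.72, those of ETS1 from -0.62 to 0.23 and those of ELF2 from -0.64 to -0.02. ELK4 and GABPA also had measured probe sets past 1.5-fold, though not their brightest. The 5 of ELK4 ranged from -0.91 to 0.62 and the 2 of GABPA from -0.86 to 0.16.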

How the data were processed

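RNA from 2 KYSE170-luc samples, 1 transfected with SOX17 and 1 with empty vector, was measured on 1 array each. The deposited values are linear intensities per probe set, made with GCOS per the submitters' processing notes. Its version and settings and the detection calls are not given in the sources used here. The values were used as deposited, with no pseudocount. Probe sets were named through GEO's annotation of the platform, and all 9 symbols are in the RefSeq table. The 62 control probe sets were left out of gene counts.

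Lists, members and thresholds were chosen with earlier results of these data known. Besides the 9 genes, the text names the 4 measured genes furthest from 0 of each pathway list, all of the CIC list, SOX17 and markers. It also names a few genes below the floor, chosen after their values were seen. DUSP6, PLAUR, MCL1, CBL, PTPN11, ELK4 and GABPA were likewise named after their values were seen, and SPRYD4 because of its name. Likeness to other genes was not computed, since 2 arrays give 1 ratio. Alternatives were centring, quantile normalization, loess (span 0.4), no floor or one at the 50th or 75th percentile, means over probe sets, dropping _x_at and _s_at probe sets, and thresholds of 0.32 on the log2 scale and 2-fold. Python 3.11.15, numpy 2.4.6, pandas 2.3.3 and statsmodels 0.14.6 were used. The ratio computation was checked for recovering the median of known changes added to shuffled ratios. That check is no test of the counts of the 9 genes or of error between cultures. Precision is limited by the number of arrays.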

Additional observations from a re-analysis of the deposited data

How the results depend on the processing

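No paired analysis was possible because there was 1 array per group and so a single shared replicate number. Centring, quantile normalization and loess left 0 of 7 genes past 1.5-fold in either direction and 11 of 14 probe sets below 0. With no floor, 1 of 9 genes (ETV4, at intensities under the floor) was at least 1.5-fold lower and 18 of 28 probe sets were below 0. At a threshold of 0.32 on the log2 scale, 2 genes were lower. With a floor at the 75th percentile, 7 of 8 probe sets were below 0, and without _x_at and _s_at probe sets 7 of 10, because fewer probe sets were counted. The median of the measured genes stayed below 0 under all 8 alternatives that were run on it. Signs of the 7 measured genes held under each alternative that kept the gene measured. Changing the floor cannot change a gene's ratio, however, and averaging cannot change that of a gene with 1 measured probe set. The log2 ratio of SPRED1 ranged from -0.56 to -0.29, the value as a mean over probe sets, and that of SPRY4 from -0.58 to -0.55, just short of 1.5-fold after quantile normalization. SPRY4 and ETV5 rest on 1 measured probe set each, whose ID ends in _s_at, and dropped out without such probe sets. Repeating the alternatives on pathway genes and list medians was chosen after seeing the data: 275 of 282 values for genes and 71 of 72 for medians moved by less than the SD of 1 ratio. Many of the gene values could not move, for the same reasons, so this tally is no measure of how firm the ratios are. The genes that moved by more were CBLB, EGR1, ELF3, ETS1, MAP2K2 and TGFA, and the median that did was that of the CIC list (0.36 without _x_at and _s_at probe sets).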

Other observations

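SPRY4-IT1, a noncoding transcript from an intron of SPRY4, was looked at after its values were seen. Its 2 probe sets read 67.9 and 19 on the SOX17 array, against 6.1 and 7.3 on the EV array. All 4 values were under the floor of 95, so no fold is given, and the SPRY4 probe set, at 113.6 on the SOX17 array and 166.7 on the EV array, ran the other way.

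Several further regulators of receptor signalling reached the floor on a single array, and were chosen after their values were seen. The ephrin receptor gene EPHA4 read 63.3 on the SOX17 array and 110.6 on the EV array. IL17RD, which encodes the FGF receptor inhibitor SEF, read 77 on the SOX17 array and 106.1 on the EV array. The brightest probe set of the ligand gene FGF18 read 92.3 on the SOX17 array and 207.8 on the EV array, while its 1 measured probe set had a log2 ratio of -0.19. The adaptor gene GAB2 read 21.1 on the SOX17 array and 95.6 on the EV array. The ligand gene HGF went the other way, with 115.2 on the SOX17 array and 85 on the EV array on its brightest probe set.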
